A study of Mus musculus with 8 samples.

Results

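Gli1, Gli2, Gli3, Sufu and Kif7 carry the Hedgehog signal inside the cell, and their levels in the Sox2-positive cells of mouse medulloblastomas were set against those in the Sox2-negative cells. They were chosen by name, with earlier results of these data known, and all 5 of the 5 were measured, among 22180 genes in all. The tumours arose in Patched1+/- mice, on CD1 and B6 parental backgrounds, that carried the Sox2eGFP reporter. Per the labels, all were irradiated at birth with a dose of 3 Gy to induce tumours, and were over 70 days old when tumours were taken. Cells positive for CD45 or Ter119, markers of white and red blood cells, were removed, and the rest was sorted by eGFP. Each of the 8 arrays held RNA pooled from 3 tumours, with 4 pools for each fraction. Both fractions thus share the Patched1 mutation, the radiation and the blood cell depletion, and no normal cerebellum is included. The reporter, not Sox2 protein, set the gate.

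In the Hedgehog pathway the receptor Patched1 holds back the membrane protein Smoothened until a ligand binds, and loss of Patched1 leaves the pathway on. The signal then reaches the Gli zinc finger transcription factors through the primary cilium. Gli2 is the main activator downstream of Smoothened, Gli3 acts mostly as a repressor after it is cut, and Gli1 is an activator whose own gene is a target of the pathway. Sufu binds Gli proteins and restrains them, and Kif7 is a kinesin that organises the tip of the cilium and helps to regulate Gli2 and Gli3. In the cerebellum the pathway drives division of granule neuron progenitors, the cells from which tumours of this kind arise.

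The sequence just before the start site is shown to set Gli2 and Sufu, which fell in Sox2-positive cells, beside Gli3 and Kif7, which did not pass the test. Sequences were matched by symbol for these 4 of the 5 genes and not for Gli1. The sequences are the 250 bases upstream of the annotated start, from RefSeq on the build GRCm38.p6, on the strand of the gene. Capitals mark CCACCC, the core of the Gli binding site, read on both strands.
Gli2 (chr1:119053620-119053869, minus strand): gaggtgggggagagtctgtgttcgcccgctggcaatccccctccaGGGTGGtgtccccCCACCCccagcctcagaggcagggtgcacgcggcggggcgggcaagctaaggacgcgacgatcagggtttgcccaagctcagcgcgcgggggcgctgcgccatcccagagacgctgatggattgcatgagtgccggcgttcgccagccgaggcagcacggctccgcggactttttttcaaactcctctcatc
Sufu (chr19:46396646-46396895, plus strand): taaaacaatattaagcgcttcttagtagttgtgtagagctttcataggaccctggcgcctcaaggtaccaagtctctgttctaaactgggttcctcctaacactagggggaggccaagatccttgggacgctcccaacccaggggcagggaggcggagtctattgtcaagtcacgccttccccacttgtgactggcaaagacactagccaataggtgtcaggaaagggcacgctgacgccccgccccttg
Gli3 (chr13:15463473-15463722, plus strand): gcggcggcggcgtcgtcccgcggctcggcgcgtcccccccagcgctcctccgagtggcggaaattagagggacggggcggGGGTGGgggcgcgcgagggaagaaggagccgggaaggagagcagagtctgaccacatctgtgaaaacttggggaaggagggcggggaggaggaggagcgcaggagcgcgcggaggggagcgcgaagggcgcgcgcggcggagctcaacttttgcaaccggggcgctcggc
Kif7 (chr7:79715708-79715957, minus strand): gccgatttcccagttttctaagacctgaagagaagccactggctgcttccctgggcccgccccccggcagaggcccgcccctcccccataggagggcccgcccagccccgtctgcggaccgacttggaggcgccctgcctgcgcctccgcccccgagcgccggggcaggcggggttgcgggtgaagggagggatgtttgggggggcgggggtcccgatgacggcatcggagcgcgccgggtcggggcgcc
The Gli core CCACCC was found at 2 places before Gli2 and at 1 before Gli3, and it was not found in the windows of Sufu and Kif7. Of all 32851 windows of this length, 28.1% hold it. The full Gli consensus GACCACCCA, which contains that core, was in none of the 4 windows and in 0.225% of all windows. The E-box CANNTG, bound by factors such as Atoh1, was found once each before Gli3 and Sufu, against 66.2% of all windows with at least 1. The Sox core ACAAT was found at 2 places before Sufu and in no other of the 4 windows (27.7% of all windows), and ACAAAG, which can also be bound by Sox factors, was in none of the 4 (16.5%). The GC box GGGCGG was found in all 4 windows, with 5 matches before Kif7, 2 before Gli3 and 1 each before Gli2 and Sufu (32.7% of all windows). Both strands were read for every motif. The windows of Gli2, Gli3 and Kif7 held 67.2%, 72.8% and 74.4% G and C and that of Sufu 54.0%, where the median over all windows was 52.4%. A match is a stretch of letters and not a measured binding site.

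Sox2-positive cells had lower levels of Gli1, Gli2 and Sufu, by 0.55 to 0.58 on the log2 scale, and Gli3 and Kif7 did not pass the test. Thus 3 of the 5 genes were lower and 0 higher, where 2.52% of all 22180 genes were lower and 5.96% higher (8.47% in either direction; limma, Benjamini-Hochberg adjusted p under 0.05 over all genes). Since the 5 genes were chosen with earlier results known, these shares are a description and not a test of the set. The falls left 0.671 of the Sox2-negative level of Gli1, 0.669 of Gli2 and 0.683 of Sufu. In the order of all genes by log2 difference, from the most negative, Gli2, Gli1 and Sufu took ranks 188, 191 and 211 of 22180. Values are log2 levels per probe set, and levels of different genes are not comparable with each other, since each probe set has its own response. In sorted pools, fewer cells of a type and less RNA per cell cannot be told apart.

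Gli1, both an effector and a target of the pathway, was measured by 1 probe set (17245874). On the Sox2-negative arrays 1 to 4 its log2 level was 7.82, 7.54, 7.09 and 7.31. On the Sox2-positive arrays 1 to 4 it was 7.19, 6.61, 6.63 and 7.03. The groups overlapped, as Sox2-negative array 3 lay below Sox2-positive array 1. The group means were 6.86 ± 0.29 for Sox2-positive cells and 7.44 ± 0.31 for Sox2-negative cells (SD, n = 4 each). Gli1 fell by 0.57 on the log2 scale (SE 0.16, 95% interval -0.93 to -0.22, limma adjusted p = 0.0461; exact permutation p = 0.0571). The call of Gli1 ended without Sox2-positive array 2, 3 or 4, without Sox2-negative array 1, 2 or 4, and with array weights (limma adjusted p = 0.0506 to 0.147).

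Gli2, the main activator, was also measured by 1 probe set (17226170). Its log2 level on the Sox2-negative arrays 1 to 4 was 7.96, 8.17, 7.508 and 7.81. On the Sox2-positive arrays 1 to 4 it was 7.36, 7.06, 7.21 and 7.506. All Sox2-positive values lay below all Sox2-negative ones, and the closest were Sox2-positive array 4 and Sox2-negative array 3, at 7.506 and 7.508. Gli2 fell by 0.58 on the log2 scale, from a mean of 7.86 ± 0.28 to 7.28 ± 0.19 (SD, n = 4 each; SE 0.14, 95% interval -0.88 to -0.28, limma adjusted p = 0.0176). The exact permutation p was 0.0286, the smallest that 4 against 4 arrays can give. The call ended without Sox2-positive array 2 (limma adjusted p = 0.0648), Sox2-positive array 3 (0.0530) or Sox2-negative array 1 (0.0596).

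Gli3, whose cut form represses targets, was dim on these arrays. Its log2 level was 5.53, 5.49, 5.94 and 5.36 on the Sox2-negative arrays 1 to 4 and 5.26, 5.44, 5.53 and 5.53 on the Sox2-positive ones (probe set 17285414). Apart from Sox2-negative array 3, all 7 values lay between 5.26 and 5.53, and the groups overlapped. The log2 difference was -0.14 (SE 0.12, 95% interval -0.40 to 0.12, limma adjusted p = 0.590; exact permutation p = 0.40), and without Sox2-negative array 3 it was -0.02. The table holds no detection calls. As a guide to dim values, 1390 odorant and pheromone receptor genes, not known to be active in these tumours, had mean levels with an upper quartile of 5.80. Both group means of Gli3 (5.44 and 5.58) were lower than that, so the array may understate any difference in this gene.

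Sufu, the restrainer of Gli proteins, had the smallest limma adjusted p of the 5. Its brighter probe set (17360022) read 8.69, 8.80, 8.73 and 8.37 on the Sox2-negative arrays 1 to 4. On the Sox2-positive arrays 1 to 4 it read 8.32, 7.964, 7.996 and 8.11. The groups did not overlap, and the closest values were Sox2-positive array 1 and Sox2-negative array 4. Sufu fell by 0.55 on the log2 scale, from 8.65 ± 0.19 to 8.10 ± 0.16 (SD, n = 4 each; SE 0.11, 95% interval -0.80 to -0.30, limma adjusted p = 0.00749; exact permutation p = 0.0286). This call stood with each array left out in turn.

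The dimmer probe set of Sufu (17365398) gave another picture. It read 5.73, 5.68, 5.97 and 6.27 on the Sox2-negative arrays and 5.73, 5.83, 5.82 and 5.93 on the Sox2-positive ones, with overlap. Its log2 difference was -0.09 (limma adjusted p = 0.765). Its mean over the 8 arrays, 5.87, was just above the receptor guide (5.80), while the brighter set lay at 8.37. With the mean of both probe sets the log2 difference of Sufu was -0.32 (limma adjusted p = 0.0283). The fall of Sufu thus rests on 1 of its 2 probe sets. Which exons each set covers was not analysed here.

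Kif7, the ciliary kinesin, differed by less than the spread of the arrays. Its brighter probe set (17492385) read 6.32, 6.17, 6.15 and 6.33 on the Sox2-negative arrays and 6.45, 6.32, 6.22 and 6.21 on the Sox2-positive ones. The groups overlapped along most of their range. The log2 difference was 0.05 (SE 0.09, 95% interval -0.15 to 0.25, limma adjusted p = 0.824; exact permutation p = 0.486). The interval leaves out a fall of the size seen in Gli1, Gli2 or Sufu. The dimmer probe set of Kif7 (17479450) had a log2 difference of 0.14, which did not pass the test either, and its mean of 5.47 was under the receptor guide of 5.80.

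**Figure D1:**
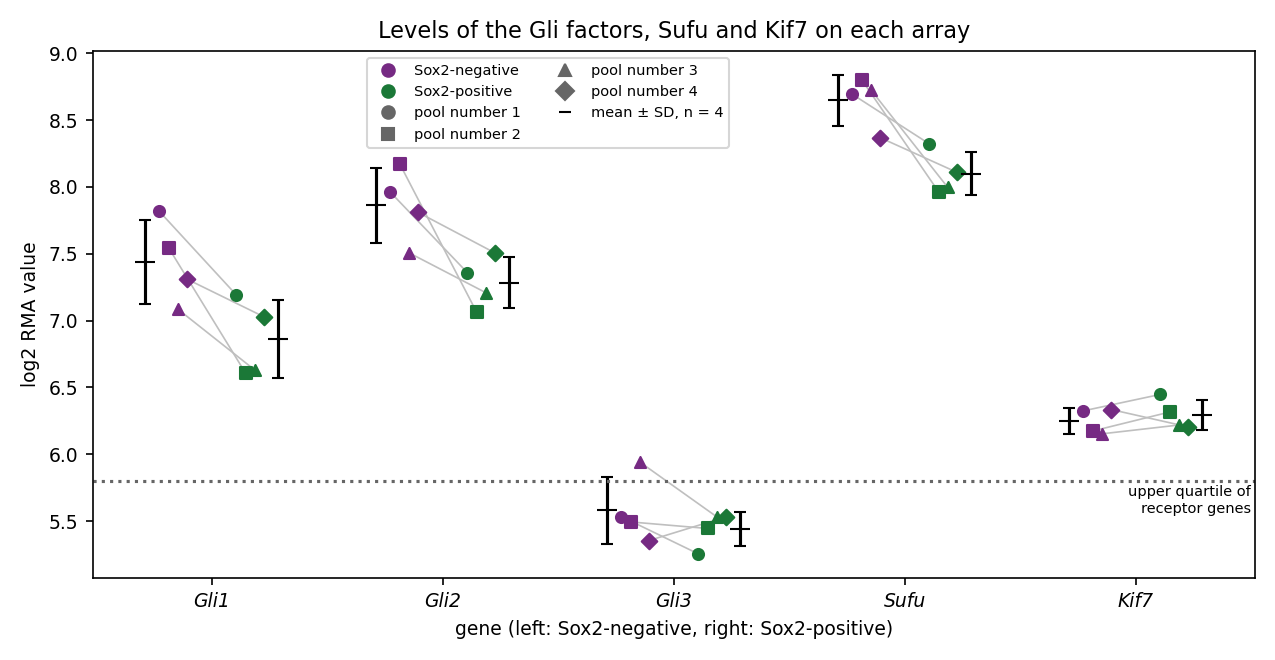
Log2 RMA level (vertical axis) of Gli1, Gli2, Gli3, Sufu and Kif7 on each array, Sox2-negative in purple on the left and Sox2-positive in green on the right of each gene. Marker shapes give the pool number, grey lines join equal numbers, black bars are mean ± SD (n = 4), and the dotted line is the upper quartile of receptor genes (5.80). Gli1, Gli2 and Sufu are lower in Sox2-positive cells at each number, while Gli3 lies mostly under the dotted line. Heights of different genes are not comparable.

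In all, groups with every Sox2-positive value below every Sox2-negative one were found for 2 of the 5 genes, Gli2 and Sufu, and for 6.07% of all genes, with another 7.63% the other way round. The plot of differences over alternatives shows the estimates side by side. For Gli1, Gli2 and Sufu the difference was below 0 under every alternative run, between -0.70 and -0.09, the latter with the dimmer Sufu probe set. Another scaling of the arrays, quantile normalization, gave -0.63 for Gli1, -0.64 for Gli2 and -0.62 for Sufu. The same scaling raised the number of lower genes over the whole table from 558 to 847, and the share of higher genes among all calls fell from 70.3% to 60.2%. The median log2 difference over all genes was -0.03 with and without it.

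**Figure D2:**
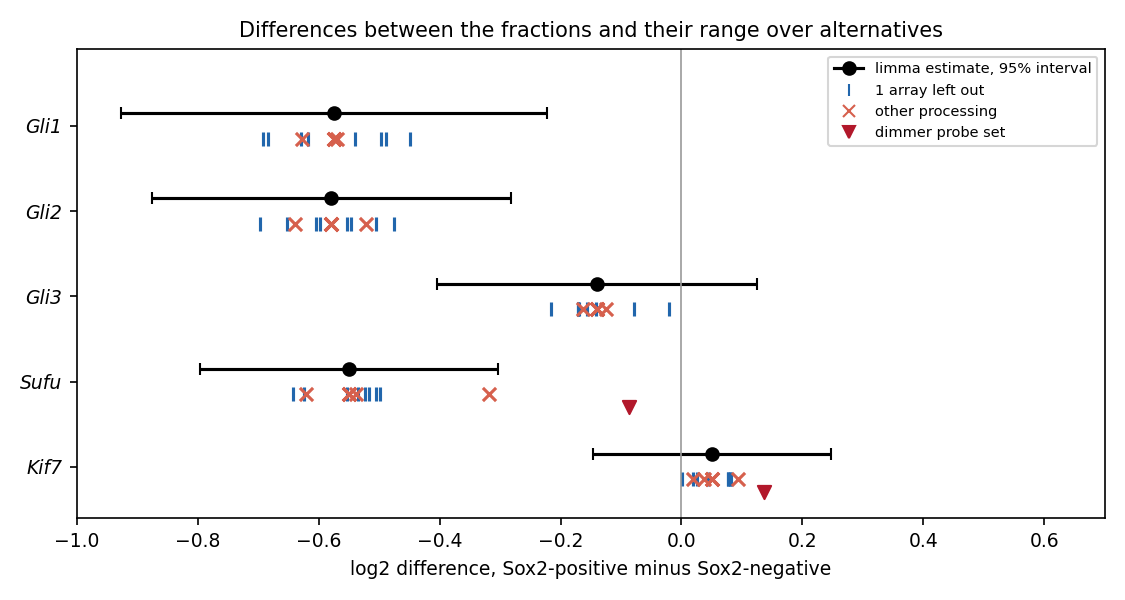
Log2 difference, Sox2-positive minus Sox2-negative (horizontal axis), for each gene. Black points are limma estimates with 95% intervals (4 against 4 arrays), blue ticks leave out 1 array, orange crosses are other processing choices and red triangles use the dimmer probe set. The intervals of Gli1, Gli2 and Sufu lie below 0, those of Gli3 and Kif7 span it, and the dimmer Sufu probe set stands at -0.09.

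Whether the genes differed from one another in their change was tested on the per-array difference of each pair, for all 10 pairs, by exact permutation of the 8 arrays. The falls of Gli1 and Gli2 differed by 0.004 on the log2 scale (interval -0.43 to 0.46, exact permutation p = 0.971). Those of Gli1 and Sufu differed by -0.02 (interval -0.48 to 0.55), and those of Gli2 and Sufu by -0.03 (interval -0.40 to 0.61), both at an exact permutation p of 0.886. The last 2 values rest on the brighter Sufu probe set. With the dimmer set they were -0.49 each, and with the mean of probe sets -0.26 each. These intervals, from inverting the exact test, still allow differences about as large as the falls themselves. Against Kif7, the change of Gli1 differed by -0.63, that of Gli2 by -0.63 and that of Sufu by -0.60. Each of these 3 pairs reached the smallest possible exact permutation p of 0.0286, and adjusted over the 10 pairs it was 0.0952. For Sufu against Kif7 averaging probe sets gave -0.41, and the dimmer sets of both genes gave -0.22 (exact permutation p adjusted over the 10 pairs = 0.286). Against Gli3, the changes of Gli1, Gli2 and Sufu differed by -0.43, -0.44 and -0.41, with exact permutation p-values of 0.229, 0.20 and 0.0857. No pair passed after adjustment, which would have needed at least 6 of the 10 pairs at the smallest p, so these tests say little about which genes differ.

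The pools carry the numbers 1 to 4 in both fractions, and arrays of equal number tended to deviate together over all genes. This was weakest at number 2 (r = 0.114), where a pair of different numbers reached 0.161. The main fit and the exact permutation tests did not use the numbers. With the number as a block, the limma adjusted p of Gli1 was 0.00552. Taken by number, Gli1 was lower in Sox2-positive cells in 4 of 4 pairs, with log2 differences of -0.62, -0.94, -0.46 and -0.28. Gli2 was lower in 4 of 4, by log2 differences of -0.60, -1.11, -0.30 and -0.30. Sufu was lower in 4 of 4, with -0.37, -0.84, -0.73 and -0.26. Number 2 thus gave the largest fall in all 3 genes. Its Sox2-negative array had the lowest of the array weights (0.510, others 0.822 to 1.435). That array also held the highest Sox2-negative level of Gli2 and Sufu, though not of Gli1. What is seen at number 2 rests on this 1 pair of arrays. Gli3 had -0.28, -0.05, -0.41 and 0.18, and Kif7 0.12, 0.14, 0.07 and -0.13, with no common direction. Within the Sox2-positive fraction, arrays 2 and 3 had the lower values and arrays 1 and 4 the higher values of Gli1, Gli2 and Sufu alike. Within the Sox2-negative fraction the 3 genes had no such common order, as Sufu was lowest on array 4 and Gli1 and Gli2 on array 3.

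Most markers of the granule lineage moved with these genes. Of 6 markers listed for granule neuron progenitors 5 were lower and 1 higher, where 2.52% of all genes were lower and 5.96% higher. The higher one was Etv1 (log2 difference 1.365, limma adjusted p = 3.02e-05). The median log2 difference of the list was -0.75, against -0.03 over all genes. The mean log2 level of that list was 8.13 to 8.25 on the Sox2-positive and 8.45 to 8.77 on the Sox2-negative arrays. Atoh1, which specifies these progenitors, had differences by number of -0.62, -1.33, -0.42 and -0.44, again largest at number 2, and the list's medians by number were -0.76, -1.03, -0.63 and -0.49. The call of Atoh1 (limma adjusted p = 0.0278) ended without Sox2-positive array 1, 2 or 3 or Sox2-negative array 1 or 4 (0.0543 to 0.0868). Of 7 markers of differentiating granule neurons 6 were lower and 0 higher (median -0.73, mean level 7.17 to 7.59 against 7.96 to 8.38). The medians of this list by number were -0.67, -0.74, -0.86 and -0.75, largest at number 3. Markers of oligodendrocyte progenitors were higher in 6 of 6 cases (median 2.69, mean level 8.87 to 9.46 against 6.26 to 6.39), and 5 of 7 astrocyte markers were higher and 0 lower (median 0.78, mean level 6.91 to 7.61 against 6.16 to 6.31). By number, the medians of the oligodendrocyte progenitor list were 2.206, 3.132, 2.365 and 2.615, also largest at number 2. Those of the astrocyte list were 0.961, 0.624, 1.318 and 0.725, largest at number 3. Whether these marker differences reflect cell makeup, and what part that had in the falls of Gli1, Gli2 and Sufu, was not tested.

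Markers of other cell types follow, beside the same shares of all genes, 2.52% lower and 5.96% higher. Of 8 microglia and macrophage markers 0 passed (mean level 5.53 to 5.62 against 5.46 to 5.73). The list's mean level lay under 5.80 on every array, while Cx3cr1 had group means of 7.26 and 7.18 and C1qb of 5.94 and 5.92. Of 7 endothelial and pericyte markers 1 was higher, Rgs5, and 0 lower (mean level 5.42 to 5.56 against 5.46 to 5.57). Of 5 red blood cell markers 1 was measured, Slc4a1, and it did not pass (5.31 to 5.50 against 5.03 to 5.44). Of 6 measured markers of dividing cells 0 passed (median -0.04, mean level 8.10 to 8.31 against 8.09 to 8.28). Sox2 itself, the gene of the reporter, was 3.13-fold higher in Sox2-positive cells and did not overlap between the groups. Its mean of 4.30 in Sox2-negative cells lay under the median of the dim guide (4.95) and its mean of 5.94 in Sox2-positive cells just over 5.80, so the array may understate this fold.

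**Figure D3:**
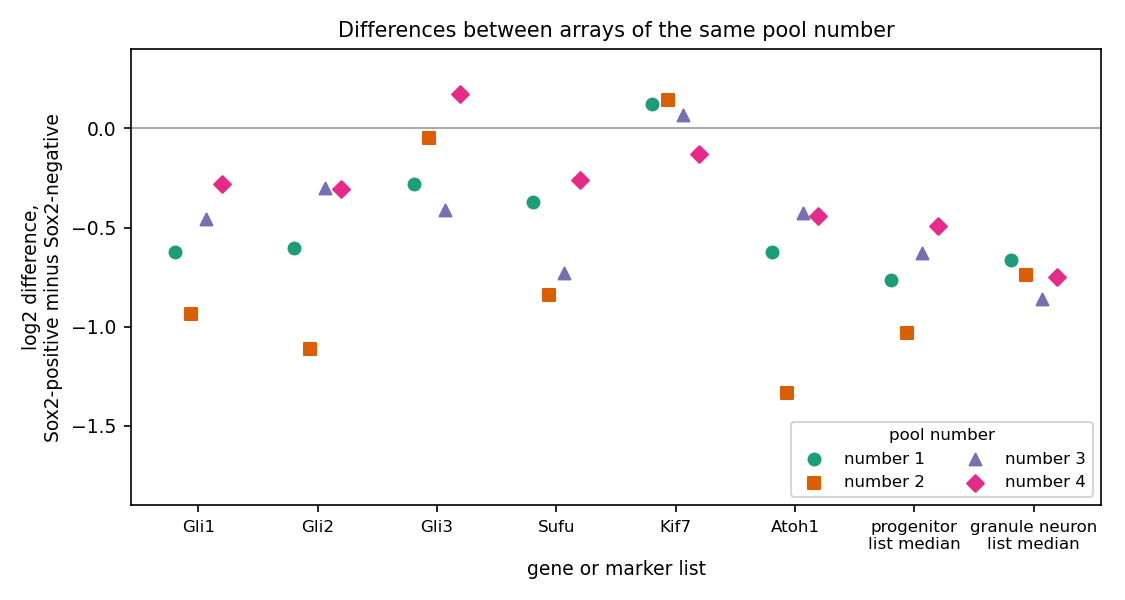
Log2 difference, Sox2-positive minus Sox2-negative (vertical axis), between arrays of equal pool number, for Gli1, Gli2, Gli3, Sufu, Kif7, Atoh1 and the medians of 2 marker lists of the granule lineage. Each point is 1 pair of arrays, with shape and colour for the number. Sox2-negative array 2 had the lowest array weight (0.510). Number 2 is lowest for Gli1 (-0.94), Gli2 (-1.11), Sufu (-0.84), Atoh1 (-1.33) and the progenitor list (-1.03), while the granule neuron list is lowest at number 3 (-0.86).

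The other genes of the pathway are read against the share of all genes that passed, 8.47% in either direction. Of 9 genes for Hedgehog ligands and their processing 0 passed (limma; median log2 difference -0.07), and the largest difference was that of Scube1, which helps to release ligand (-0.26, adjusted p = 0.144). Shh was at a log2 level of 4.45 ± 0.23 and 4.36 ± 0.11 (SD, n = 4 each), both lower than the median of the dim guide (4.95). Of 10 receptors and membrane regulators 1 was lower and 0 higher (median -0.05). That gene was Boc, a co-receptor, at 8.54 ± 0.15 against 9.19 ± 0.25, without overlap (log2 difference -0.65, limma adjusted p = 0.00433). Smo, the signal transducer of the pathway, missed the threshold at a log2 difference of -0.39 (limma adjusted p = 0.0603). It passed under 5 of 14 alternatives, among them the replicate number as a block (0.0388) and quantile normalization (0.0238). Under the other 9 it did not pass, with a limma adjusted p of up to 0.175 (without Sox2-positive array 3). Ptch1, heterozygous in the genotype of the mice and also a target, had a difference of 0.25 (limma adjusted p = 0.360). The state of its alleles in the sorted cells was not analysed here.

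Regulators that act on Gli proteins in the cytoplasm and cilium come next, and their counts are again read against 2.52% lower and 5.96% higher among all genes. Of 23 kinases, ubiquitin ligases and other Gli regulators 1 was lower and 0 higher (median 0.04). It was Stk36, the mammalian Fused kinase, which fell by 0.32 (limma adjusted p = 0.0394). The call did not hold with the replicate block (0.0566) or without any 1 of 6 arrays (0.0646 to 0.118), and it stood without Sox2-positive array 4 or Sox2-negative array 4. Of 23 cilium and intraflagellar transport genes 0 passed (median -0.08), with Dync2h1, the motor of retrograde transport, furthest from 0 at -0.26 (limma adjusted p = 0.106). Kif7 lay inside the range of these cilium genes, -0.26 to 0.10, and Gli1, Gli2 and Sufu lay outside it.

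Target genes went both ways. Of 13 measured, 3 were lower and 3 higher in Sox2-positive cells (limma; median 0.16), against 2.52% lower and 5.96% higher among all genes. Mycn, a driver of progenitor division, fell by 0.79 on the log2 scale and the Wnt modulator Sfrp1 fell by 0.75. The Sox2-positive mean of Mycn, 5.59, lay under the dim guide of 5.80, so its fall may be understated. Cdk6, a kinase of the start of the cell cycle, fell by 0.62 (limma adjusted p = 0.0210), and did not pass without Sox2-positive array 2 or 4 or Sox2-negative array 1 or 2 (up to 0.0752). Ccnd1, which encodes cyclin D1 and pairs with Cdk6, was 1.49-fold higher, at 9.67 ± 0.12 against 9.09 ± 0.17 (SD, n = 4 each; limma adjusted p = 0.00282). Its values did not overlap between the groups. Rab34, a small GTPase of the cilium, was 1.37-fold higher (limma adjusted p = 0.0491), a call that leaving out any 1 array ended (0.0517 to 0.120), as did the replicate block (0.0590) and array weights (0.0546). Bcl2, a blocker of cell death, was the other higher gene and is named here outside the rule for named genes. Its log2 difference was 0.45 (limma adjusted p = 0.0275), and averaging its probe sets gave 0.16 (0.382). Its call also ended with quantile normalization and without Sox2-positive array 2 or 3 or Sox2-negative array 1, 2 or 3. Hhip, a Hedgehog-binding target, had a difference of 0.17 (limma adjusted p = 0.638).

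Among genes with related zinc fingers, the Zic genes fell and the Glis genes did not pass. Of 7 measured, 4 were lower and 0 higher (limma; median -0.51), against 2.52% lower and 5.96% higher among all genes. Zic2 fell by 1.09 on the log2 scale, Zic1 by 0.85, Zic5 by 0.62 and Zic4 by 0.51, with limma adjusted p-values of 2.73e-05, 0.000164, 0.00152 and 0.00599. Zic factors mark and maintain the granule lineage, and Zic1 was also in the progenitor list above. Glis1, Glis2 and Glis3 had differences of -0.003, -0.02 and 0.05. Gli1, Gli2 and Sufu thus fell by less than Zic2 and Zic1 and by about as much as Zic4 and Zic5, without a test of those differences.

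**Figure D4:**
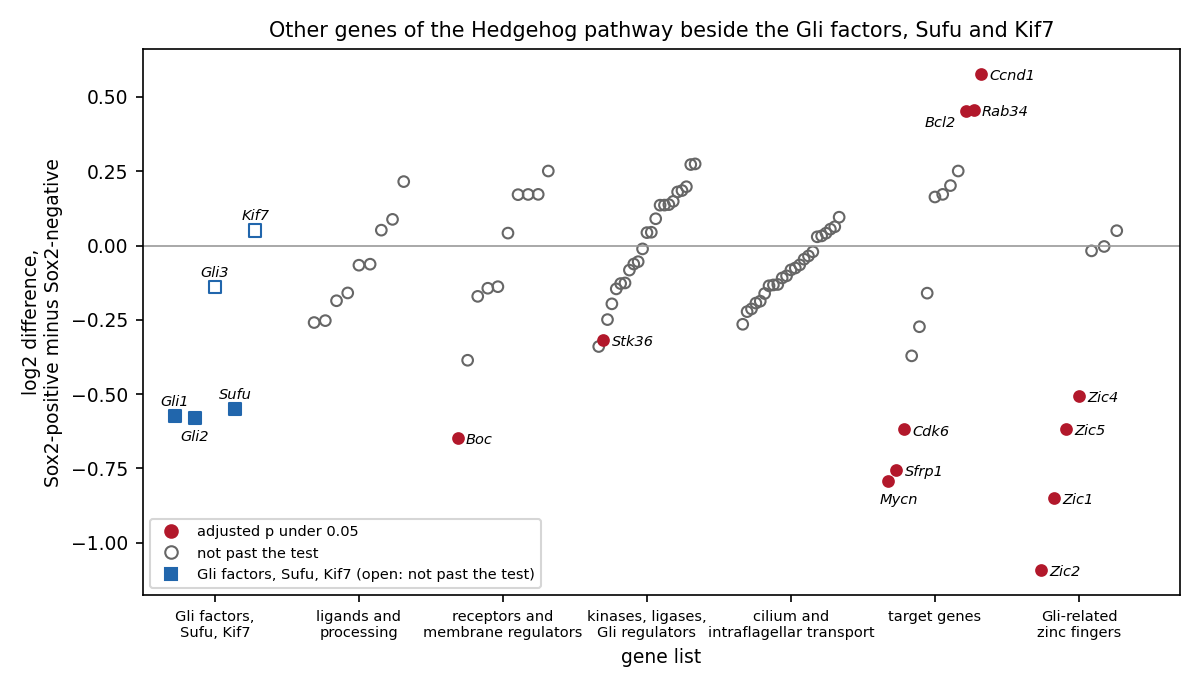
Log2 difference, Sox2-positive minus Sox2-negative (vertical axis), of Gli1, Gli2, Gli3, Sufu and Kif7 (blue squares) and of the genes of 6 lists (circles). Filled symbols passed limma at an adjusted p under 0.05. Boc, Mycn, Sfrp1, Cdk6 and the Zic genes lie near or below Gli1, Gli2 and Sufu, Ccnd1 stands highest at 0.58, and the cilium list stays between -0.26 and 0.10. The calls of Stk36 and Rab34 ended with the replicate block.

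The genes whose levels followed each gene most closely over the 8 arrays are given as a description, by Pearson's r, with r of the deviations from the fraction means second. The 8 arrays fall into the 2 fractions and the search ran over all genes, so high values are easily found. For Gli1 they were Cux1 (0.983, 0.964), Plekha6 (0.982, 0.979) and Ccdc157 (0.975, 0.946). Of these Plekha6 fell by 0.41 (limma adjusted p = 0.0322), though not without Sox2-positive array 2, 3 or 4 or Sox2-negative array 1 or 2. For Gli2 they were Gpr153 (0.989, 0.966), Stx16 (0.983, 0.960) and the co-receptor gene Boc (0.980, 0.953). Boc was thus both the only receptor gene past the test and among the 3 genes closest to Gli2. These 2 facts are not independent, since r over the 8 arrays includes the difference between the fractions. For Gli3 they were Ldlrad4 (0.974, 0.974), Gpkow (0.950, 0.972) and Utp23 (0.948, 0.954), and none of these passed the limma test. For Sufu they were Tas2r131 (0.989, 0.971), Mir551b (0.986, 0.955) and Prkcb (0.982, 0.958). For Kif7 they were BB123696 (0.959, 0.961), Parva (0.948, 0.946) and Gabre (0.918, 0.917).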

How the data were processed

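The authors deposited 1 log2 value per probe set and array, and the submitters' processing notes name RMA and Affymetrix Expression Console 1.2.0.20. RMA corrects background, normalizes arrays to a common distribution and compresses changes of dim genes. It also removes differences in total RNA per cell. Values ran from 2.51 to 13.6, from which the log2 scale was taken. Build and probe annotation version: not given in the sources used here. Array medians lay between 5.83 and 5.88. Correlations between arrays were 0.973 to 0.987 within fractions and 0.942 to 0.968 between them. The number of arrays limits the precision.

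Of 41345 probe sets, 23521 carried 1 gene symbol in the platform annotation, 1814 several and 16010 none. The probe set with the highest mean over the 8 arrays was used per gene, which left 22180 genes. No dim genes were removed. Group differences came from lmFit and eBayes of limma 3.58.1 (R 4.3.3), with group as the one term, two-sided, adjusted by Benjamini-Hochberg over all genes, with a threshold of 0.05. The p-values measure the spread between pools. The fit was tested on simulated data. Alternatives were quantile normalization, a variance trend, array weights, the mean of probe sets, the dimmer probe set, dim genes left out, the replicate number as a block, and each array left out in turn. Exact permutation tests used all 70 assignments of the arrays, two-sided. Pair intervals hold every shift not rejected at 0.05, and since exact p-values come in steps, their level is at least 95% and not exactly that.

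The 5 genes and the gene lists were chosen with earlier results of these data known. Named from each pathway list were up to 5 genes past the test with the largest differences, or the 1 largest where none passed. The 3 genes most correlated with each of the 5 studied genes were also named, leaving out predicted genes, and so was Sox2. Smo, Ptch1, Hhip, Bcl2, Shh, the Glis genes, Rgs5, Slc4a1, Atoh1, Etv1, Cx3cr1 and C1qb were named outside that rule. Some list members, among them Csnk1d, Kctd11, Arl13b, Ttbk2, Tctn1, Talpid3, Ccnb1 and 4 red blood cell markers were not analysed here. Deviations from the group means correlated at 0.164, 0.114, 0.177 and 0.241 between arrays of equal number, each above 0.1. The pairing thus comes from the data, and the highest correlation of different numbers was 0.161. The fit without a block was kept as the main one, since the labels do not say what the number links.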

Additional observations from a re-analysis of the deposited data

Results flagged for a closer look

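In 7 of 76 groups of 4 arrays, 1 value stood far from the other 3 by Dixon's criterion. For a single independent group, chance alone gives about 1 in 20. Some of these genes were picked by correlation over the same arrays, so the groups are not independent. The count is thus no test of an excess over chance. None of the 7 belonged to Gli1, Gli2, Gli3, Sufu or Kif7. Sox2-positive array 3 was high for Rab34 (6.70, others 6.11 to 6.16) and Ptch1 (7.11, others 6.72 to 6.77). Sox2-positive array 2 was low for Zic2 (8.24, others 8.60 to 8.63). Sox2-positive array 1 was high for Prkcb (8.91, others 8.73 to 8.74) and low for Gpkow (6.45, others 6.51 to 6.52). Sox2-negative array 3 was high for Ldlrad4 (6.79, others 6.37 to 6.44). Ldlrad4 was picked because it follows Gli3, which was also highest on that array. Sox2-negative array 4 was low for Tas2r131 (6.47, others 6.67 to 6.70).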

How the results depend on the processing

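Gli3 and Kif7 kept their direction and stayed short of the threshold under all alternatives run, and Gli1, Gli2 and Sufu kept their direction. With 1 array left out the log2 difference ranged from -0.69 to -0.45 for Gli1, from -0.70 to -0.48 for Gli2, from -0.64 to -0.50 for Sufu, from -0.22 to -0.02 for Gli3 and from 0.0003 to 0.08 for Kif7. With array weights Gli1 was at -0.57 and past the threshold no more (limma adjusted p = 0.0506). The dimmer probe set, an alternative chosen after seeing the data, gave -0.087 for Sufu, and turned Gli3 minus Sufu to -0.053. Lower genes over the whole table numbered 847 with quantile normalization (558 without) and 309 to 591 with 1 array left out, among them 309 without Sox2-positive array 2, 361 without Sox2-positive array 4 and 357 without Sox2-negative array 1. With the replicate block Gli1 was at an adjusted p of 0.00552, Gli2 at 0.0136 and Sufu at 0.0072. The block called 768 lower and 1572 higher genes (1321 higher without it), and of the 38 genes for which its calls were compared it changed those of Smo, Stk36 and Rab34. Small differences that turned sign were Hhip (-0.026 to 0.29 with 1 array left out, below 0 without Sox2-positive array 3), Gpkow (-0.042 to 0.021) and Utp23 (-0.094 to 0.013; both above 0 without Sox2-negative array 3) and Parva (-0.030 with quantile normalization and -0.0015 to 0.071 with 1 array left out). The cause was not tested. Gli3 was among the dimmer genes left out in 1 alternative, which gave it no value. Low signal limits Gli3, Sox2, Mycn and the dimmer probe sets of Sufu and Kif7.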
